A study of Mus musculus with 2 samples.

Results

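The fatty acid binding and uptake proteins described here are 9 genes of mouse skeletal muscle RNA, taken as a list by gene symbol and covered by every probe set annotated to 1 symbol only. They are the muscle forms Fabp3 and Slc27a1, Cd36 of muscle and fat, the fat forms Fabp4 and Fabp5, the liver forms Fabp1 and Slc27a2, and the broadly made Slc27a4 and Dbi. All 9 had a probe set, 21 probe sets in all, out of 18193 genes and 34945 probe sets with 1 symbol. The study set Jhdm2a null skeletal muscle against wild-type skeletal muscle on 2 Affymetrix arrays, 1 per genotype. Each carried RNA combined from 3 males, all 3 months old. Both groups share a background of 129 embryonic stem cells backcrossed for 4 generations to C57BL/6, and no other allele or agent is given for either group. Jhdm2a, now Kdm3a, encodes a Jumonji enzyme that removes methyl groups from lysine 9 of histone H3. The comparison asks which muscle transcripts differ when it is disrupted.

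Long-chain fatty acids reach muscle from albumin and from lipoproteins. At the cell surface the scavenger receptor family member Cd36 and the Slc27a transport proteins promote their uptake, and the Slc27a proteins are also acyl-CoA synthetases. Inside the cell, small binding proteins of the Fabp family carry fatty acids, and Dbi, the acyl-CoA binding protein, carries their CoA esters. The Fabp genes are tissue forms of 1 fold: Fabp3 is the form of heart and skeletal muscle, Fabp4 of adipocytes, Fabp5 of skin, fat and macrophages, and Fabp1 of liver and intestine. Several of these genes, such as Fabp1, Fabp4 and Cd36, are known targets of PPAR receptors.

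With 1 array per genotype there was no replicate check, so no test was run and no p-value is given. Higher and lower describe these 2 arrays only, and the number of arrays limits the precision. Values are MAS5 signals, the linear intensity of a probe set. A probe set was called measured when it read above a floor of 182 on both arrays, the 60th percentile of all signals, and a gene's log2 ratio, null over wild type, was the mean over its measured probe sets. Probe sets of 1 gene differed in log2 ratio with an SD of 0.29 over 3719 genes, and 18 hybridisation controls averaged -0.02 ± 0.09 (SD), both technical figures that cover no spread between mice. The median over 9696 measured genes was 0.04. The targeted gene was not lower: its probe set 1426810_at read 487.5 on the null and 406.1 on the wild-type array. The sources used here do not say whether it lies in the disrupted part, so the probe set checks nothing about the labels, and the arrays are those labelled null and wild type.

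The 9 genes were not alike. The muscle forms read nearly the same on both arrays, the fat forms and Dbi were lower on the null array by similar amounts, and the liver forms were above the floor on the wild-type array alone. Of the 9 genes 7 were measured on both arrays. At least 1.5-fold lower on the null array were 3 of these 7, Fabp4, Fabp5 and Dbi, beside 6.34% of all measured genes. The same 3 were at least 2-fold lower, beside 2.37% of all measured genes, and 0 of the 7 were at least 1.5-fold higher, beside 3.38%. Their median log2 ratio was -0.43, the value of Slc27a4, against 0.04 over all measured genes. RNA of whole muscle was measured, so fewer cells of a type and less RNA per cell cannot be told apart in any of these values.

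**Figure D1:**
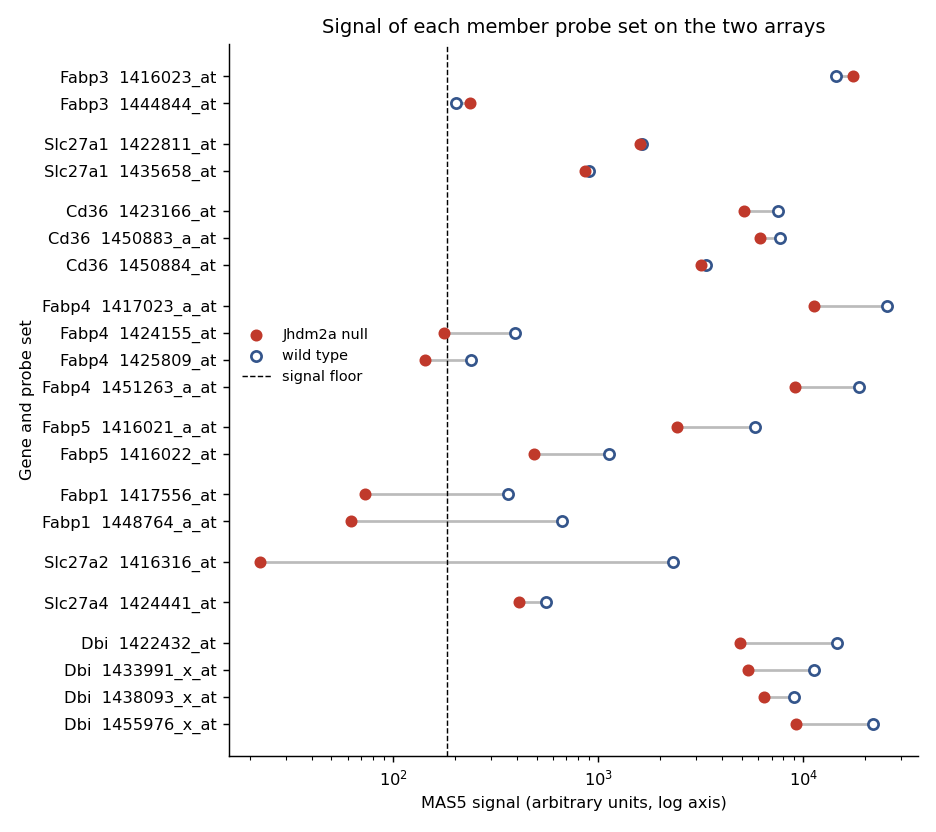
MAS5 signal of each of the 21 probe sets (log axis, arbitrary units), with filled points for the Jhdm2a null array and open points for the wild-type array. The points of Fabp3 and Slc27a1 nearly coincide, those of Fabp4, Fabp5 and Dbi lie apart with the null array lower, and the null points of Fabp1 and Slc27a2 fall left of the floor of 182.

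Fabp3, the binding protein of muscle fibres, was the 1 measured gene of the 9 above 0. Its probe set 1416023_at read 17505.9 on the null array and 14459.7 on the wild-type array. Its dimmer probe set 1444844_at read 235.7 on the null array and 203.1 on the wild-type array, just over the floor. Both read slightly higher in null muscle, and their mean log2 ratio was 0.25 ± 0.04 (SD of 2 probe sets), 1.19-fold higher. Of all measured genes 23.8% had a higher ratio. The 8 muscle fibre markers, such as the creatine kinase Ckm at 0.22, the actin Acta1 at 0.25 and the fast myosin Myh4 at 0.19, all lay between 0.05 and 0.25, with a median of 0.17. On the null array 103 probe sets were brighter than 1416023_at, and the highest read 30204.4. Whether the bright signals of Fabp3 and of these markers were compressed was not tested.

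Slc27a1, the transport protein FATP1 of muscle and fat, read 1589.3 on the null and 1626.7 on the wild-type array by probe set 1422811_at. Probe set 1435658_at read 861.5 on the null and 899.9 on the wild-type array. The 2 arrays were close in both, with a mean log2 ratio of -0.05 ± 0.02 (SD of 2 probe sets), 1.03-fold lower. This difference was smaller than the usual spread between probe sets.

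Cd36, the fatty acid translocase of muscle fibres, adipocytes, capillary endothelium and macrophages, was lower in all 3 probe sets, by amounts that differed. Probe set 1423166_at read 5143.1 on the null and 7495.6 on the wild-type array, 1.46-fold lower. Probe set 1450883_a_at read 6147.6 on the null and 7668.7 on the wild-type array, 1.25-fold lower. Probe set 1450884_at read 3169.8 on the null and 3340.9 on the wild-type array, only 1.05-fold lower. The mean log2 ratio was -0.31 ± 0.23 (SD of 3 probe sets), and it ran between -0.43 and -0.20 when any 1 probe set was left out. Cd36 thus stayed within 1.5-fold, and 15.1% of all measured genes were lower still.

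Fabp4, the adipocyte binding protein also called aP2, which capillary endothelium and macrophages make too, was lower in all 4 probe sets. Its brightest, 1417023_a_at, read 11296.3 on the null and 25614.5 on the wild-type array. Probe set 1451263_a_at read 9096.1 on the null and 18674.4 on the wild-type array. These 2 measured probe sets gave a mean log2 ratio of -1.11 ± 0.10 (SD of 2 probe sets), 2.16-fold lower, and only 1.98% of all measured genes were lower. The other probe sets, 1424155_at and 1425809_at, read 176.6 and 143.2 on the null array, both under the floor, and 390.7 and 239.7 on the wild-type array. They allow only bounds, at least 2.14-fold and at least 1.32-fold lower. On the wild-type array 3 of 45037 probe sets were brighter than 1417023_a_at, and the highest read 28234.2. Whether its signal was compressed there was not tested.

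Fabp5, the epidermal form that adipocytes and macrophages also make, had the lowest mean of the 7 measured here, though without _s_at, _x_at and _a_at probe sets Dbi was lower, at -1.56 against -1.22. Probe set 1416021_a_at read 2412.5 on the null and 5837.5 on the wild-type array. Probe set 1416022_at read 487.1 on the null and 1131 on the wild-type array. Their ratios nearly coincided although their signals did not, with a mean of -1.25 ± 0.04 (SD of 2 probe sets), 2.37-fold lower. Only 1.64% of all measured genes were lower. The 2 fat forms differed from each other by 0.14 on the log2 scale, within the spread between probe sets. Together the fat forms averaged -1.18 and the muscle forms 0.10, a difference in log2 ratio of -1.28, or 2.42-fold. Slc27a1, which fat also makes, is counted here as a muscle form. The part of fat cells in its value and in that of Fabp3 was not tested. Against Fabp3 alone the difference was -1.35 for Fabp4 and -1.49 for Fabp5.

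The liver forms stood furthest apart. Fabp1, the binding protein of hepatocytes and enterocytes, had both probe sets above the floor on the wild-type array and under it on the null array. Probe set 1448764_a_at read 62.1 on the null and 665.8 on the wild-type array, at least 3.65-fold lower against the floor. Probe set 1417556_at read 72.7 on the null and 361.6 on the wild-type array, at least 1.98-fold lower. Slc27a2, the very long-chain acyl-CoA synthetase FATP2 of liver and kidney, read 22.5 on the null and 2315.5 on the wild-type array by its 1 probe set, 1416316_at, at least 12.7-fold lower. A gene with every probe set under the floor on the null array, and 1 at 2 times the floor on the wild-type array, was uncommon: 90 of 10699 genes above the floor on either array, 0.841%, and both liver forms were among them. Of these 90, 5 had a larger bound than Slc27a2 and 37 a larger bound than Fabp1. Signals under the floor have no order, so the bounds do not rank how low the null array was.

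**Figure D2:**
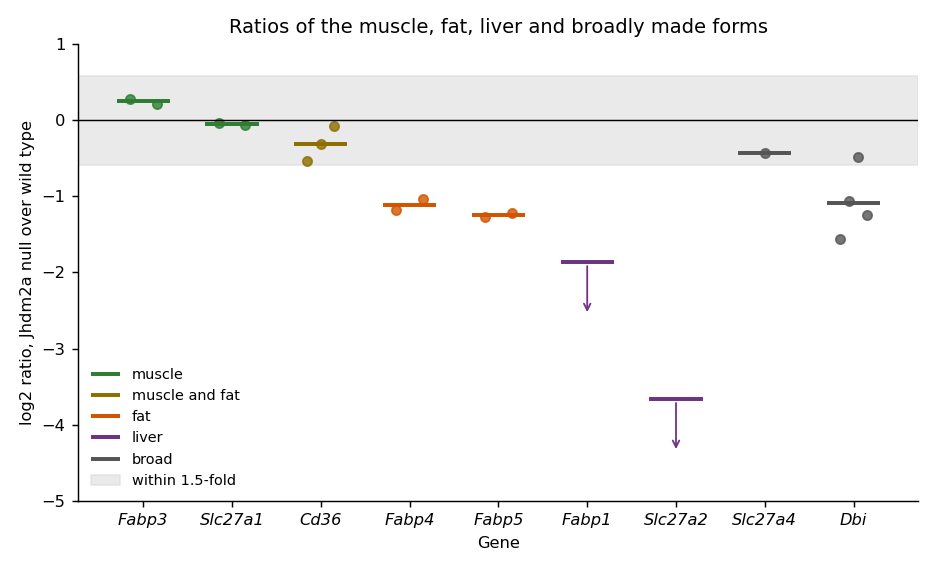
Log2 ratio, Jhdm2a null over wild type, of each gene, with points for measured probe sets, bars for their mean and, for Fabp1 and Slc27a2, bars with arrows for the bound against the floor. The muscle forms lie near 0, the fat forms near -1.18, and the liver forms at or below their bounds.

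The promoter windows of Fabp1, Slc27a2 and Fabp3 are shown because these genes lie at the ends of the range, the 2 liver forms below the floor on the null array and the muscle form above 0. Each is the RefSeq window of the GRCm38.p6 assembly with 250 bases before and 50 after the start, 5′ to 3′ on the gene's strand, at chr6:71199629-71199928 (plus strand) for Fabp1, chr2:126552774-126553073 (plus strand) for Slc27a2 and chr4:130308488-130308787 (plus strand) for Fabp3. Capitals mark AGGTCA or its reverse complement TGACCT, the half-site that PPAR and other nuclear receptors bind, and TATAAA, the TATA box.
Fabp1: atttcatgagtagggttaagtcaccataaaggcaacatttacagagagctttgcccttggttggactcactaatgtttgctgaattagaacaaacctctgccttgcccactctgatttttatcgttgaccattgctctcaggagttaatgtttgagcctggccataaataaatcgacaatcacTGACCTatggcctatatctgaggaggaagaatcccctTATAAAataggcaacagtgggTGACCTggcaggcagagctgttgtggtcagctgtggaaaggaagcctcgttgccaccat
Slc27a2: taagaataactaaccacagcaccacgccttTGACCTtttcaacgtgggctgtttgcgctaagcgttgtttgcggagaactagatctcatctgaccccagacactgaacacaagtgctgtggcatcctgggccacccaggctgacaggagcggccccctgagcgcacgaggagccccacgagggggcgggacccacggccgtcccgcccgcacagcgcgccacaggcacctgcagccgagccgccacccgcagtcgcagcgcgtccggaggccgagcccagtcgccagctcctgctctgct
Fabp3: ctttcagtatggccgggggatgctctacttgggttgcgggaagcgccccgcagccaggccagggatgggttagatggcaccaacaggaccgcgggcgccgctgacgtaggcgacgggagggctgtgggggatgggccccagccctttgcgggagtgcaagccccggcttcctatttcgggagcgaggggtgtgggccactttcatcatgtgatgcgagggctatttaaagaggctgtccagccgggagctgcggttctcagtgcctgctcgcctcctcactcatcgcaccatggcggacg

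The half-site, searched on both strands, began 67 and 9 bases before the start in Fabp1 and 220 bases before it in Slc27a2, and was not in the Fabp3 window. Fabp1 also had TATAAA 30 bases before its start. Windows were held for 7 of the 9 genes, 10 windows in all, and 3 of these 7 genes had the half-site, Fabp1, Slc27a2 and Cd36. No window was held for Fabp4 and Fabp5, so the fat forms were not searched. By window, 3 of the 10 had the half-site and 1 had TATAAA. Among all 32851 windows held, 16.3% had the half-site and 13.6% had TATAAA. The direct repeat of 2 half-sites 1 base apart, the PPAR element in its strict form, was in 0 of the 10 windows and in 0.0396% of all windows. Repeats with a mismatch were not searched, so that count does not cover them. The CCAAT box was in 5 of the 10 windows, those of Cd36, Dbi and Slc27a1 with a match, and in 37.4% of all windows. The windows of Dbi overlap and share 1 match, which is counted in each of them. A match of letters is a description and not a binding site.

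Dbi, the acyl-CoA binding protein that nearly every cell makes, was lower in all 4 probe sets. Probe set 1422432_at read 4922.5 on the null and 14533.4 on the wild-type array, 2.95-fold lower. Probe set 1455976_x_at read 9194.4 on the null and 21888.4 on the wild-type array, 2.38-fold lower. In the remaining probe sets the 2 arrays were closer. Probe set 1433991_x_at read 5393 on the null and 11239.9 on the wild-type array, 2.08-fold lower. Probe set 1438093_x_at read 6432.3 on the null and 9030.2 on the wild-type array, 1.40-fold lower and within 1.5-fold. The mean log2 ratio was -1.09 ± 0.45 (SD of 4 probe sets), 2.13-fold lower, and ran between -1.29 and -0.93 when any 1 probe set was left out. An _x_at name marks a probe set whose probes may match other transcripts, and the 1 probe set without such a name gave the lowest ratio, -1.56. Dbi and Fabp4 had nearly the same mean, 0.02 apart on the log2 scale, but the probe sets of Dbi disagreed by far more.

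Slc27a4, the widely made transport protein FATP4, read 411.9 on the null and 554.1 on the wild-type array by its 1 probe set, 1424441_at. Its log2 ratio was -0.43, 1.35-fold lower, within 1.5-fold and near that of Cd36. Of all measured genes 10.1% were lower. With 1 probe set it has no technical spread of its own.

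**Figure D3:**
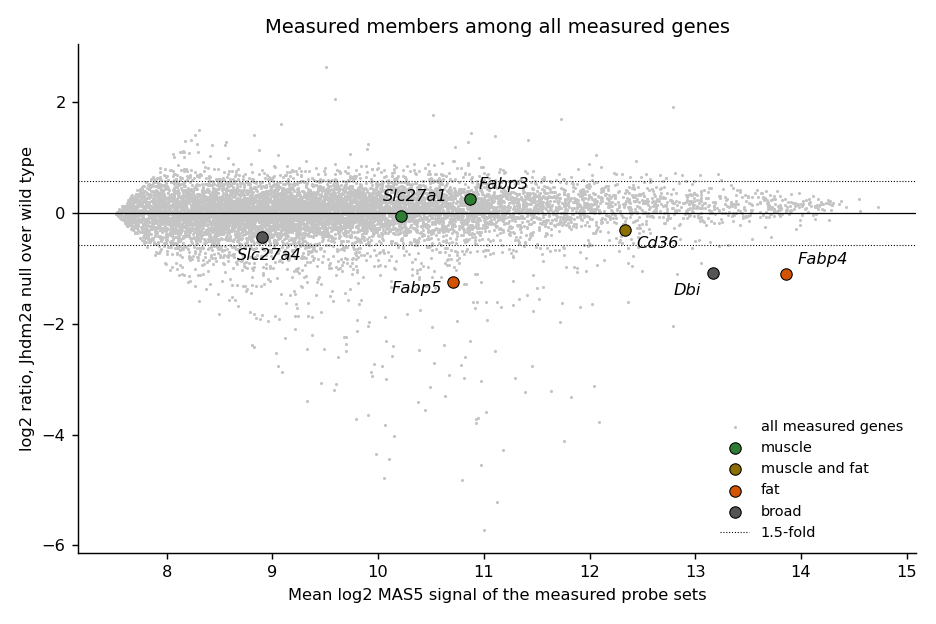
Log2 ratio, Jhdm2a null over wild type, against mean log2 MAS5 signal for all 9696 measured genes (grey) and the 7 measured genes of the group (coloured by form). Fabp4, Fabp5 and Dbi lie under the lower 1.5-fold line, and Fabp3 and Slc27a1 lie in the main cloud.

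Genes with ratios most like those of Fabp5 and Fabp3 were sought among measured genes with 2 or more probe sets, by the distance in log2 ratio, which over 2 arrays is a single number per gene. Nearest to Fabp5 were Aco1 at -1.25, Plin5 at -1.24 and Gcnt2 at -1.24. Nearest to Fabp3 were Ip6k2, Yaf2 and Thyn1, each at 0.24 or 0.25.

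Other genes of fatty acid handling, a list of 51, were also lower more often than higher on the null array. Of 47 with a probe set, 27 were measured, 9 of them at least 1.5-fold lower and 3 at least 1.5-fold higher, against the 6.34% and 3.38% of all measured genes given above. Their median log2 ratio was -0.34, and 22 of 27 lay below 0, beside 44.3% of all measured genes.

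In the release of fatty acids from lipoproteins, Lpl, the lipase itself, had probe sets of opposite sign and a mean of -0.12. Gpihbp1, which anchors the lipase to capillary endothelium, had -0.34. Angptl4, a secreted inhibitor of the lipase, read 349.3 on the null and 1961.4 on the wild-type array by its measured probe set, 5.62-fold lower. Its other probe set, under the floor on both arrays, read 12.6 on the null and 7.6 on the wild-type array. With no floor the mean of the Angptl4 probe sets was -0.88. Lmf1, which the lipase needs for folding, read 291.2 on the null and 721.9 on the wild-type array by its measured probe set, 2.48-fold lower. Its second probe set, under the floor on both arrays, read 139.1 on the null and 109 on the wild-type array, and with no floor the mean of both was -0.48, within 1.5-fold. Apoc3, an apolipoprotein made in liver that slows triglyceride clearance, read 115.6 on the null and 685.7 on the wild-type array, at least 3.76-fold lower against the floor.

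Among acyl-CoA synthetases, which trap fatty acids as CoA esters, members went both ways. Acsl5 read 590.2 on the null and 4484.9 on the wild-type array, 7.60-fold lower. The acetyl-CoA synthetases Acss2 of the cytosol and Acss1 of mitochondria were 3.42-fold and 2.18-fold lower. Acss1 lay within 1.5-fold under 2 of 12 alternatives, with a ratio of -0.26 under a floor set at the median signal and of -0.54 where 1 array past the floor was enough. Acsl6 read 1348.8 on the null and 803.1 on the wild-type array, 1.68-fold higher and past 1.5-fold in 11 of 12 alternative settings, and Acsl4 was 1.53-fold higher, past 1.5-fold in 5 of 12 alternative settings. Acsl1, the main long-chain form of muscle and fat, had no probe set with 1 symbol.

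Of the carriers and thioesterases, Rbp4, the plasma retinol carrier from liver and fat, was 6.05-fold lower. Acot11, a thioesterase first described in brown fat, was 4.98-fold lower, and the acyl-CoA binding protein Acbd4 was 2.36-fold lower. In the membrane, Got2, a mitochondrial aminotransferase also described at the cell surface as a fatty acid binding protein, was 1.55-fold higher, and its 2 measured probe sets read 13829.5 and 5107.3 on the null array and 11237.4 and 2626.1 on the wild-type array. Got2 was past 1.5-fold in 9 of 12 alternative settings. Cav1, the caveolin of fat and endothelium, had -0.02, and the caveolar coat protein Cavin1 was 1.51-fold lower, past 1.5-fold in 8 of 11 alternative settings. None of the other Fabp family genes, Fabp2, Fabp6, Fabp7, Fabp9, Fabp12 and Pmp2, was above the floor on both arrays. Pctp, Mfsd2a and Acsm3 reached it in wild type alone, each at under 2 times the floor.

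Markers of fat and liver cells were lower on the null array beside the fat and liver forms. Of 9 adipocyte markers, which include Lpl, 6 were measured and all 6 were below 0, with a median log2 ratio of -3.06. Adiponectin, Adipoq, read 1145.2 on the null and 11443.3 on the wild-type array, while Lep and Pparg reached the floor in wild type alone and Plin1 had no probe set with 1 symbol. The brightest probe sets of the list summed to 19398.8 on the null and 43389 on the wild-type array. Lpl, which muscle also makes, gave 16439.2 of the null and 15835.2 of the wild-type sum, and without it the sums were 2959.6 on the null and 27553.8 on the wild-type array, 9.31-fold lower. Of 7 brown adipocyte markers 6 were measured and 5 were below 0, with a median of -0.63. The uncoupling protein Ucp1 read 283.4 on the null and 14884.9 on the wild-type array, and Cidea read 367.1 on the null and 13566.9 on the wild-type array. Prdm16 had a log2 ratio of -0.43, and Elovl3 was at least 11.5-fold lower against the floor. Dio2 had -0.34 from its measured probe set, while its brightest read 177.4 on the null, under the floor, and 958 on the wild-type array. The list summed to 16399.2 on the null and 47798.3 on the wild-type array. Cox7a1, abundant in muscle too, gave 13824.6 of the null and 13554.7 of the wild-type sum, and without it the sums were 2574.6 on the null and 34243.6 on the wild-type array, 13.3-fold lower. The measured adipocyte markers other than Lpl, from -4.02 to -1.63, were lower than Fabp4 at -1.11 and Fabp5 at -1.25. The part of fat cells in the value of any of the 9 genes, Slc27a2 and Fabp3 included, was not tested.

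Hepatocyte markers were dim on the null array. Of 8 such markers 6 had a probe set, and these summed to 709.9 on the null and 8153.4 on the wild-type array. Albumin, Alb, read 361.2 on the null and 2634.6 on the wild-type array, Apoa1 and Ttr reached the floor in wild type alone, and Fgb and Ahsg were under it on both. Apoh had a log2 ratio of -0.29 from its measured probe set, within 1.5-fold, while its brightest read 160.5 on the null, under the floor, and 431.8 on the wild-type array. Fabp2, Vil1, Lct and the remaining enterocyte markers with a probe set, 5 in all, were under the floor on both arrays. The part of liver cells in the values of Fabp1 and Slc27a2 was not tested, and neither was the part of other cells.

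Markers of other cells that make Fabp4, Fabp5 or Cd36 lay closer to 0. Of 8 capillary endothelial markers 4 were below 0 and 4 above, with a median of 0.00, and sums of 6294.6 on the null and 6325 on the wild-type array. Pecam1 had 0.22 and Cdh5 -0.15, while Kdr, the 1 at least 1.5-fold lower, read 356.1 on the null and 712.1 on the wild-type array. Of 6 measured macrophage markers 4 were below 0, with a median of -0.16, Cd68 at -0.18, Adgre1 at 0.11, Csf1r at -0.36 and Cd163 at -0.68, and the list summed to 4910 on the null and 5609.3 on the wild-type array. Keratinocyte markers were dim, with Krt14 under the floor on both arrays, Krt5 under it in wild type, Krt10 the 1 measured at 0.17, and sums of 834.7 on the null and 677.2 on the wild-type array.

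**Figure D4:**
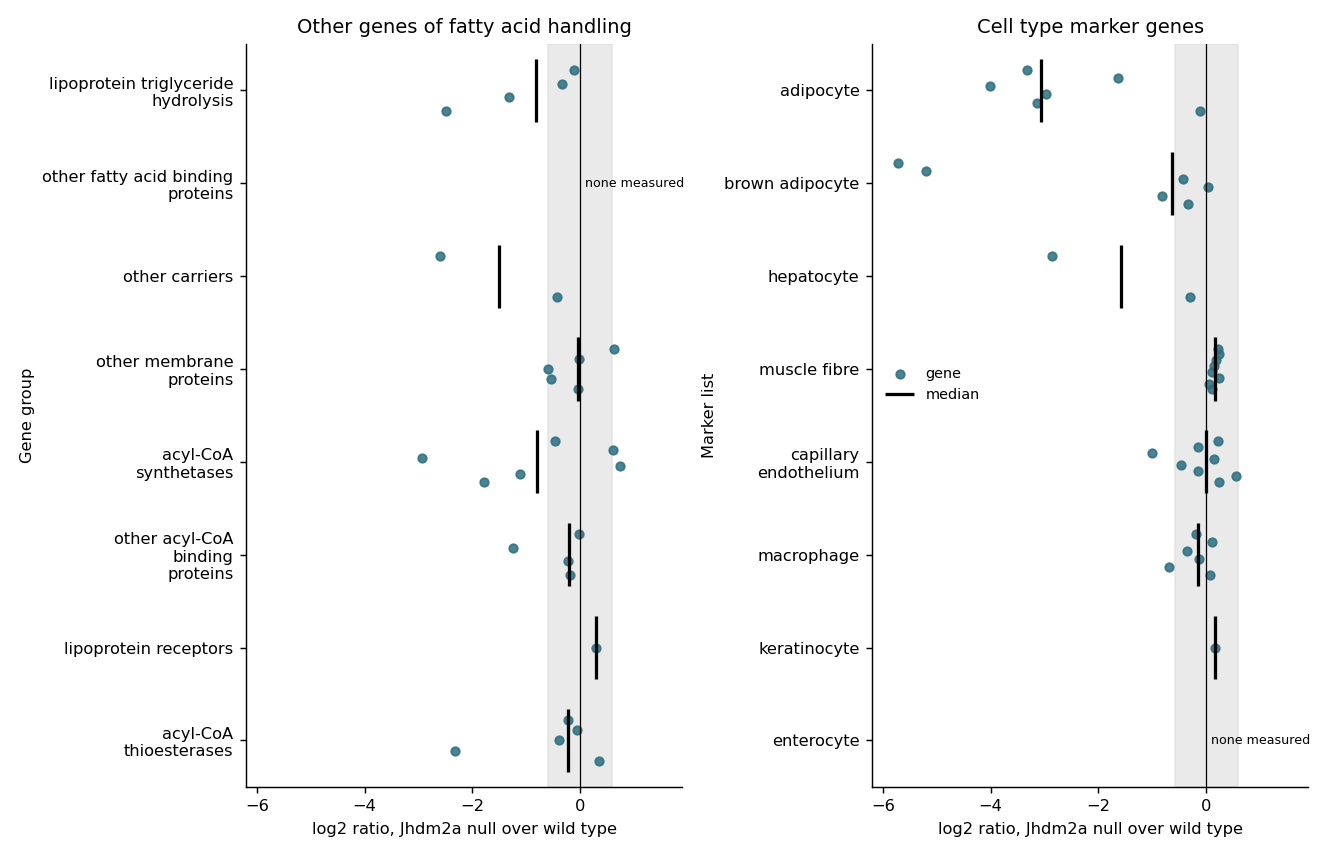
Log2 ratios, Jhdm2a null over wild type, of measured genes in 8 groups of fatty acid handling (left) and 8 lists of cell type markers (right), with a point per gene, a bar at the median and grey within 1.5-fold. Adipocyte markers lie far below 0 with a median of -3.06, while the 8 muscle fibre markers sit between 0.05 and 0.25.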

How the data were processed

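The deposited values are linear MAS5 signal intensities for each probe set, with RNA of 3 mice combined per array per the series' design text. The submitters' processing notes name MAS5, and its version and the genome build are not given in the sources used here. The trimmed means of the 2 columns were the same (500, with 2% cut from each end), so rescaling to it changed nothing. Control probe sets (64) were left out. Of 45037 probe sets 34945 had 1 symbol in the platform annotation, 932 several and 9160 were unnamed here. 0 columns of other samples were present. Computation used Python 3.11.15 and statsmodels 0.14.6 for loess (span 0.3). The procedure was tested on simulated data. No test has residual degrees of freedom, so fold limits of 1.5 and 2 describe the arrays. Members, lists and named genes were chosen with earlier results of these data known. Named genes are the 9 members, Kdm3a, listed genes past 1.5-fold, 5 preset genes, the first markers of each list and the nearest genes. Aco1, Plin5, Gcnt2, Ip6k2, Yaf2 and Thyn1 come from that last rule. Apoc3, Pparg, Cd163, Fgb, Ahsg, Apoh, Elovl3, Dio2, Cox7a1, Pctp, Mfsd2a, Acsm3, Acsl3, Acbd3, Acbd6, Scarb1, Scarb2 and Smyd1 were named after their values were seen. The alternatives were other scalings, floors, a pseudocount and other uses of probe sets.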

Additional observations from a re-analysis of the deposited data

How the results depend on the processing

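Across 12 alternatives each measured member kept its sign and its side of 1.5-fold wherever it could be measured, with log2 ratios from 0.18 to 0.28 for Fabp3, -0.10 to -0.02 for Slc27a1, -0.41 to -0.31 for Cd36, -1.22 to -0.93 for Fabp4, -1.31 to -1.15 for Fabp5, -0.47 to -0.35 for Slc27a4 and -1.56 to -1.08 for Dbi. One of these 12, the values as deposited, repeats the main setting because rescaling changed nothing, so it could not differ in any count. Fabp4 could not be measured without _s_at, _x_at and _a_at probe sets, nor Slc27a4 with the floor at the 75th percentile. With no floor 5 members were at least 1.5-fold lower, beside 16.9% of all genes, and the median of the members was -1.03. With genes above the floor on either array, where signals under the floor were set to it, the values were 5, 7.03% and -0.93. Fabp1 and Slc27a2 enter in both settings. Liver minus muscle forms had no value with the floor on both arrays. It was -4.88 with no floor, a value that rests on null signals under the floor, which have no order. With genes above the floor on either array it was -2.65, which is a bound and not a measured difference. The related list had 15 of 47 genes lower and 5 higher with no floor, beside 16.9% and 12.4% of all genes. It had 1 of 27 higher with loess and with the brightest probe set, beside 2.63% and 3.67% of all measured genes. In that list Acsl4 kept its side of 1.5-fold in 5 of 12 alternatives, Got2 in 9 of 12, Acss1 in 10 of 12, Acsl3 and Acsl6 in 11 of 12, Scarb1 in 7 of 11, Cavin1 in 8 of 11 and Lmf1 in 10 of 11. Lpl and Acbd6 kept their sign in 10 of 12, Scarb2 in 11 of 12 and Acbd3 in 8 of 11, and no other measured gene of the list crossed 1.5-fold or turned sign. The marker sums without Lpl and without Cox7a1 were chosen after seeing the data. No paired analysis was possible because each genotype had 1 array, and no replicate could be left out for the same reason. Signal over background limits Fabp1 and Slc27a2 to bounds.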

Other observations

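Fabp1 is a near neighbour of the targeted gene. In the RefSeq gene order of GRCm38.p6, used here only for neighbours, 8 protein-coding genes lie between Fabp1 and Kdm3a on chromosome 6. Of these, 5 were measured, with log2 ratios from -0.12 to 0.56. At least 1.5-fold lower or higher were 0 of the 5, beside 6.34% lower and 3.38% higher of all measured genes. A count of 0 among so few genes is near those shares. Smyd1, a muscle methyltransferase, had the highest at 0.56. Chromosome around a targeted allele usually keeps the origin of the embryonic stem cells after a few backcrosses, and its part in the values of Fabp1 was not tested.

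The fat forms are neighbours too. Between Fabp4 and Fabp5 on chromosome 3 lie 2 protein-coding genes, Pmp2, a binding protein of myelin, and Fabp9, a form of testis. Pmp2 read 184.2 on the null and 159.7 on the wild-type array, and Fabp9 read at most 43.8 on the null and 7.9 on the wild-type array. Of these neighbours only Pmp2 reached the floor, on the null array alone, while Fabp4 and Fabp5 were lower on the null array.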
